A study of Mus musculus with 8 samples.

Results

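The insulin-like growth factor (IGF) system was examined in retinal pigment epithelium (RPE) eyecups of mice at postnatal day 11 (P11). It was represented by 10 genes, taken by symbol from the 31053 gene rows of the count files: the ligands Igf1 and Igf2, the receptors Igf1r and Igf2r, and the binding proteins Igfbp2, Igfbp3, Igfbp4, Igfbp5, Igfbp6 and Igfbp7. All 10 were present in the files, and all 10 passed the filter on low counts among 13813 tested genes. There were 4 libraries of the knockout (Bbs8-/-) and 4 of its wild-type littermate controls (Bbs8+/+), all untreated and labelled as strain C57/Bl6. The study's methods count each animal as a biological replicate, but the number of animals behind a library is uncertain for reasons given with the sex-linked transcripts. Bbs8, listed as Ttc8, encodes a subunit of the BBSome, a complex that carries membrane proteins to and from cilia. The labels name the source as eye cups. For RNA from eyecups the study's methods describe removal of muscle, fat, cornea, lens, retina and optic nerve and homogenization of the rest, which would keep choroid and sclera with the RPE, and they also describe a separate isolation of RPE sheets without tying either protocol to these libraries. In such bulk samples fewer cells of a type and less RNA per cell cannot be told apart.

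Igf1 and Igf2 are small secreted growth factors. Both signal mainly through the tyrosine kinase Igf1r and on to phosphatidylinositol 3-kinase and Akt, whereas Igf2r, the cation-independent mannose-6-phosphate receptor, takes up Igf2 for breakdown in lysosomes. The binding proteins are secreted, hold the ligands in the extracellular space and release them when cut by proteases such as the pappalysins. In the eye, IGF signalling is known for its part in ocular growth and in the development of retinal vessels.

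Reads came from the 3′ end of polyadenylated transcripts, so a count stands for a transcript end, and levels given as CPM, counts scaled to the library size, were not divided by gene length. Total gene counts were between 2159295 and 2884983 in Bbs8+/+ and between 1636725 and 2179761 in Bbs8-/-, and 3 counts, taken as the smallest detectable level, equalled 1.04 to 1.83 CPM. The 10 genes had between 36 and 5292 counts in each library. Ttc8 was at 14.6 to 21.6 CPM in Bbs8+/+ and at 2.29 to 9.70 CPM in Bbs8-/-, lower in every knockout library (edgeR FDR 2.74e-06, log2 fold change -1.95). Mitochondrial transcripts took 3.59% to 3.82% of counts in Bbs8+/+ and 3.19% to 3.33% in Bbs8-/-. Sex-linked transcripts went against a reading in which each library is 1 animal. Xist, which is expressed in females, was at 640 to 746 CPM in Bbs8+/+ and 570 to 625 CPM in Bbs8-/-, while Ddx3y, a gene of the Y chromosome, was at 36.0 to 41.6 and 59.0 to 67.2 CPM, so every library held transcripts of both sexes. Their proportions were close within a genotype and differed between the genotypes, with 4 Y-linked genes making up 7.68% to 8.78% of Y-linked plus Xist reads in Bbs8+/+ and 14.9% to 17.3% in Bbs8-/-. The 4 libraries of a genotype may therefore share pooled tissue, and p-values given here measure only the spread between libraries, which may be technical and smaller than that between animals. The part of these differences in the values below was not tested.

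Of the 10 genes, 4 fell in Bbs8-/- at a false discovery rate (FDR) below 0.05, namely Igf1, Igfbp4, Igfbp5 and Igfbp7. Among all tested genes 1.14% fell at this threshold, among the 6626 genes with a mean of at least 20 CPM the share was 1.99%, and among the 640 genes with a mean of at least 200 CPM it was 8.28%. None of the 10 rose by the edgeR quasi-likelihood test (1.10% of all genes did) or by DESeq2, while 2 of them, Igfbp2 and Igfbp6, were higher at an unadjusted p below 0.05. All 4 knockout libraries lay below all 4 controls for 4 of the 10 genes (3.76% of all tested genes, and 4.94% of the 6626 more abundant ones) and above them for 1 gene (3.62%). Taking both directions together, 2.24% of all tested genes passed FDR 0.05 and 7.38% were without overlap. The median log2 fold change was -0.16 over the 10 genes and -0.0041 over all tested genes. Igfbp4 ranked 15 among the 13813 genes by p.

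**Figure D1:**
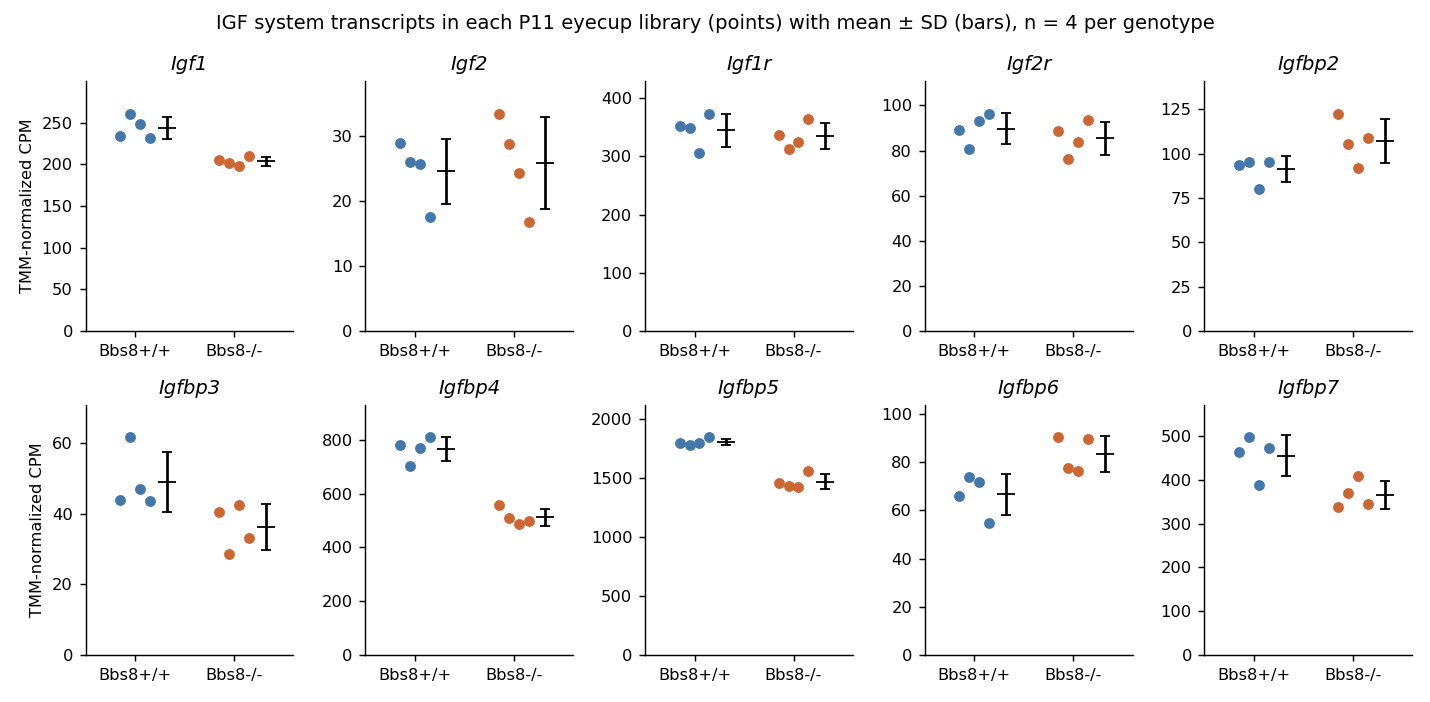
TMM-normalized CPM of the 10 IGF system genes (one panel each, linear axis from 0) in the 4 Bbs8+/+ and 4 Bbs8-/- libraries; points are libraries in order of replicate number and bars are mean ± SD. The Bbs8-/- points of Igf1, Igfbp3, Igfbp4 and Igfbp5 lie below all Bbs8+/+ points, those of Igfbp6 lie above them, and the other 5 panels overlap.

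Igf1 (ENSMUSG00000020053, chromosome 10, 87858265 to 87937042, plus strand of mm10) was the more abundant ligand in the counts. Its level was 234, 261, 248 and 232 CPM in Bbs8+/+ replicates 1 to 4 and 206, 202, 198 and 210 CPM in Bbs8-/- replicates 1 to 4. The lowest control lay 21.6 CPM above the highest knockout. Igf1 fell by 16.4% in Bbs8-/-, or -0.26 ± 0.075 (SE) in log2 fold change (edgeR FDR 0.0392). The call was close to the threshold. With a library left out, the FDR was 0.0548, 0.207 and 0.0740 without Bbs8+/+ replicates 1, 2 and 3, and 0.0946, 0.0931, 0.142 and 0.0561 without Bbs8-/- replicates 1 to 4, although the log2 fold change remained between -0.28 and -0.22. Of these 8 fits only the one without Bbs8+/+ replicate 4 kept Igf1 past the threshold, at 0.0356.

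Igf2 (ENSMUSG00000048583, chromosome 7, 142650766 to 142666816, minus strand) was counted at 28.9, 26.0, 25.7 and 17.5 CPM in Bbs8+/+ and at 33.4, 28.7, 24.3 and 16.8 CPM in Bbs8-/-. The genotypes overlapped throughout, and the log2 fold change was 0.07 with a 95% interval from -0.33 to 0.47 (edgeR FDR 0.937). These counts may hold only part of the Igf2 transcripts. In the annotation, 497 of the last 500 bases of Igf2 are shared on the same strand with Gm49394, a read-through transcript that ends in the same final exon (142650769 to 142654052), and htseq-count run with its default rule assigns reads in such shared bases to neither gene. The rule used was not given in the sources used here. Gm49394 is listed in the files with 0 counts in each of the 8 libraries, and Igf2 itself had 36 to 67 counts per library. Reads set aside as ambiguous between any genes amounted to 5428 to 5737 CPM (scaled to total gene counts), and how many of them belong to Igf2 cannot be read from the files. A genotype difference in Igf2 therefore cannot be judged from these counts.

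H19 (142575529 to 142578143 on the same chromosome and strand), a long noncoding RNA at the same imprinted locus that is expressed from the opposite parental allele to Igf2, has no such overlap in its last 500 bases. Its level was 1831, 1708, 2064 and 1844 CPM in Bbs8+/+ and 2263, 2072, 2113 and 2393 CPM in Bbs8-/-, higher in every knockout library. The estimate was 0.25 ± 0.044 (SE, log2 scale; edgeR FDR 2.51e-05).

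Neither receptor passed the test. Igf1r (chromosome 7, 67952827 to 68233668), the receptor kinase through which both ligands signal, was at 352, 349, 306 and 373 CPM in Bbs8+/+ and at 337, 313, 326 and 364 CPM in Bbs8-/-. Its log2 fold change was -0.05 with a 95% interval from -0.18 to 0.09 (edgeR FDR 0.849). Igf2r (chromosome 17, 12682406 to 12769664) was at 89.2, 80.6, 92.9 and 96.3 CPM in Bbs8+/+ and at 88.5, 76.2, 83.9 and 93.4 CPM in Bbs8-/-. The antisense RNA gene Airn overlaps the body of Igf2r but not its last 500 bases. For this clearance receptor the log2 fold change was -0.07 (95% interval -0.29 to 0.15, edgeR FDR 0.863). Expressed as a percent change, the lower ends of these intervals were -11.6% for Igf1r and -18.1% for Igf2r, and any smaller fall lies within them.

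**Figure D2:**
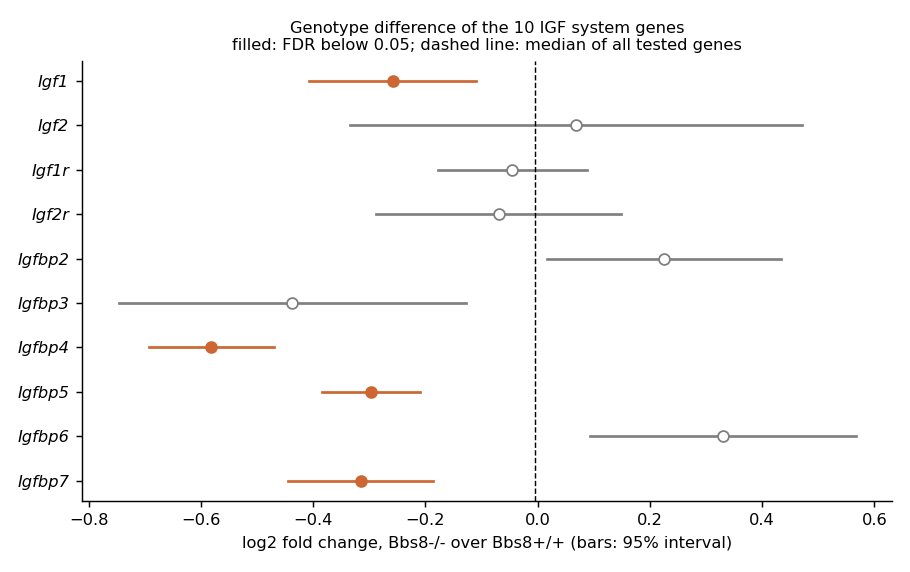
Log2 fold change of each IGF system gene in Bbs8-/- over Bbs8+/+ with its unadjusted 95% interval (horizontal axis, log2 scale); filled symbols mark FDR below 0.05 and the dashed line marks the median of all tested genes. Igfbp4 lies farthest from the line at -0.58, Igfbp5, Igfbp7 and Igf1 lie between -0.32 and -0.26, and the intervals of Igf2, Igf1r and Igf2r include 0.

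Among the 6 binding proteins, 3 fell, 0 rose and 3 were not past the threshold in the edgeR test, and DESeq2 gave the same numbers. All 6 had an unadjusted p below 0.05 by edgeR, against 13.0% of all tested genes. That share covers genes of all levels, and the share among genes as abundant as these was not taken. Igfbp4, which mostly inhibits IGF action and is the best known substrate of the pappalysin Pappa, changed most. It lies on chromosome 11 from 99041244 to 99054392 (ENSMUSG00000017493, plus strand). Its level was 780, 702, 771 and 809 CPM in Bbs8+/+ and 557, 509, 485 and 498 CPM in Bbs8-/-. The lowest control and the highest knockout were 145 CPM apart. Igfbp4 fell by 33.2% (95% interval -38.1% to -27.8%), or -0.58 ± 0.056 (SE) in log2 fold change (edgeR FDR 1.11e-15).

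Igfbp5, which binds to extracellular matrix as well as to the ligands, gave the largest counts of the 10 genes. It lies on chromosome 1 from 72857932 to 72874884 (ENSMUSG00000026185, minus strand), with Igfbp2 next to it on the plus strand, 5457 bases away and with the 3′ ends of the pair facing each other. Its level was 1801, 1779, 1801 and 1847 CPM in Bbs8+/+ and 1456, 1433, 1427 and 1565 CPM in Bbs8-/-. Every knockout library was lower than every control, and the coefficient of variation was 1.58% in the control and 4.38% in the knockout libraries. Igfbp5 fell by 18.6% (log2 fold change -0.30, standard error 0.044, edgeR FDR 1.72e-07). Its 95% interval was -23.4% to -13.6%, and the ratio of Igfbp4 to Igfbp5 counts was 0.395 to 0.438 in Bbs8+/+ and 0.318 to 0.383 in Bbs8-/-, without overlap.

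Igfbp7, a secreted protein of vessels and stroma that binds the ligands only weakly, lies on chromosome 5 from 77349240 to 77408041 (ENSMUSG00000036256, minus strand). Its level was 464, 497, 389 and 473 CPM in Bbs8+/+ and 338, 371, 410 and 346 CPM in Bbs8-/-. Replicate 3 of each genotype lay toward the other genotype, and these 2 libraries overlapped. Igfbp7 fell by 19.6% (log2 fold change -0.32, standard error 0.065, edgeR FDR 5.0e-04). Of its final exon of 260 bases, 85 are shared with the end of Polr2b on the opposite strand. Whether counting used strand is not given in the sources used here, so some Igfbp7 reads may have been set aside as ambiguous.

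The sequences upstream of these 3 falling binding protein genes are shown because these genes fell in the same comparison, though by different amounts. The bases are from RefSeq's promoter table for GRCm38.p6 (mm10), written 5′ to 3′ along the gene, and each window of 231 bases stops before the first annotated exon. Capitals mark any of 3 core promoter motifs, each searched on both strands and none overlapping another in these windows. They were TATAAA, to which the general factor TBP binds, the motif CCAAT, to which the trimeric factor NF-Y binds, and the GC box GGGCGG, to which Sp1 binds.
Igfbp4, chr11:99040994-99041224, plus strand: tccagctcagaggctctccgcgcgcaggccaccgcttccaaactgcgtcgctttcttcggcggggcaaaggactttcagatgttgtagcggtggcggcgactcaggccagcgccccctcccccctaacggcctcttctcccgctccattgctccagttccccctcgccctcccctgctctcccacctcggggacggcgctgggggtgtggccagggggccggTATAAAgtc
Igfbp5, chr1:72874885-72875115, minus strand: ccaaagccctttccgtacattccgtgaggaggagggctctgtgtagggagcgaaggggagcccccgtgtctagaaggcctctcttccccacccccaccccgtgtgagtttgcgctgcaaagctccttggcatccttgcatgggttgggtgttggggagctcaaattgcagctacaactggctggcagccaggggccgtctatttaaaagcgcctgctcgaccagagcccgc
Igfbp7, chr5:77408065-77408295, minus strand: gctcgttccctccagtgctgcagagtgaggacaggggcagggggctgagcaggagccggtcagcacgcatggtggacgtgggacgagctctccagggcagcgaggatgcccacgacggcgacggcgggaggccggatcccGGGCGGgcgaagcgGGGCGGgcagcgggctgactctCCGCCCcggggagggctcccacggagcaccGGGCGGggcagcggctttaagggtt
The Igfbp4 window held 1 TATAAA and no other of these motifs. The Igfbp7 window held GGGCGG or its reverse complement 4 times. The Igfbp5 window held none of these exact letters, and near matches were not searched. Among 32851 promoter windows of the same length, TATAAA was found in 11.8%, CCAAT in 32.3% and GGGCGG in 30.0%. None of the searched motifs was held by all 3 windows.

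The other 3 binding proteins were less abundant and did not pass FDR 0.05. Igfbp3, the main carrier of IGFs in blood, was at 43.9, 61.7, 47.2 and 43.6 CPM in Bbs8+/+ and at 40.6, 28.7, 42.6 and 33.2 CPM in Bbs8-/-. The genotypes were separated by only 0.98 CPM, and the estimate was -0.44 ± 0.16 (SE, log2 scale; edgeR FDR 0.144).

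Igfbp6, which prefers Igf2 over Igf1, was at 65.9, 73.9, 71.9 and 54.8 CPM in Bbs8+/+ and at 90.4, 77.8, 76.6 and 89.7 CPM in Bbs8-/-. All 4 knockout libraries were above all 4 controls, by at least 2.66 CPM, with an estimate of 0.33 ± 0.12 (SE, log2 scale; edgeR FDR 0.154). Igfbp2, which can also bind integrins, was at 93.5, 95.5, 80.3 and 95.3 CPM in Bbs8+/+ and at 122, 105, 92.2 and 109 CPM in Bbs8-/-. The genotypes overlapped at Bbs8-/- replicate 3, and the estimate was 0.23 ± 0.11 (SE, log2 scale; edgeR FDR 0.334).

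Summed over the 6 binding proteins, counts came to 3248, 3210, 3160 and 3323 CPM in Bbs8+/+ and to 2605, 2524, 2534 and 2641 CPM in Bbs8-/-. The means were 3235 ± 68.6 and 2576 ± 56.2 CPM (SD, n = 4 each), so that the knockout sum was 79.6% of the control sum. Igfbp5 accounted for 51.1% of the net difference of 659 CPM, Igfbp4 for 38.4%, Igfbp7 for 13.6% and Igfbp3 for 1.95%. Igfbp2 (-2.44%) and Igfbp6 (-2.57%) went the other way. The composition also differed. Igfbp4 made up 23.7% ± 1.20 of the summed binding protein counts in Bbs8+/+ and 19.9% ± 1.14 in Bbs8-/-, whereas the share of Igfbp5 was 55.9% ± 0.757 and 57.1% ± 1.52. Igfbp2 went from 2.82% ± 0.189 to 4.16% ± 0.435 of the sum, and Igfbp6 from 2.06% ± 0.303 to 3.24% ± 0.223, both without overlap between the genotypes. Shares of one sum depend on each other, and no test was made of them.

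**Figure D3:**
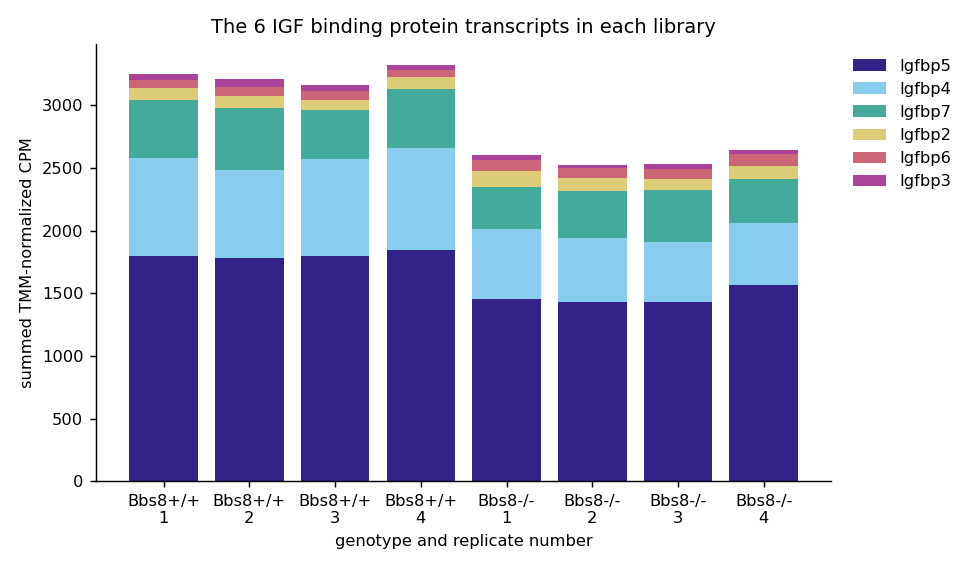
Summed CPM of the 6 IGF binding proteins in each of the 8 libraries (stacked bars from 0, one colour per gene). All Bbs8+/+ bars reach 3160 CPM or more and all Bbs8-/- bars end at 2641 CPM or less, with Igfbp5 the widest band in each.

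The genes around the IGF system were examined in 4 lists with 56 genes. Of these, 46 were tested, 0 fell and 1 rose, which was H19, by edgeR and by DESeq2 alike, where 1.14% of all tested genes fell and 1.10% rose by edgeR. At an unadjusted p below 0.05, 7 were lower and 3 were higher, and 13.0% of all tested genes passed that limit in either direction. The median log2 fold change of the 46 was -0.09. The other 10 were too low to test: Igfbp1, Insrr and Irs4 had 0 counts in every library, and Igfals, the partner of circulating IGF complexes, had at most 2.

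Among the relatives that share the IGFBP domain, 10 genes were tested with a median of -0.06 and none past FDR 0.05. Crim1, a membrane protein that binds bone morphogenetic proteins, was at 520 ± 24.3 CPM in Bbs8+/+ and 528 ± 31.4 CPM in Bbs8-/- (edgeR FDR 0.940). Ccn2, the connective tissue growth factor, was at 234 ± 41.3 and 203 ± 45.9 CPM (edgeR FDR 0.297). Among 6 tested ligand partners and binding protein proteases the median was -0.34. Stc1, a stanniocalcin and as such an inhibitor of pappalysins, was at 19.8, 25.2, 17.3 and 27.6 CPM in Bbs8+/+ and at 10.3, 14.6, 14.2 and 14.5 CPM in Bbs8-/-. The genotypes did not overlap, and the estimate was -0.74 ± 0.23 (SE, log2 scale; edgeR FDR 0.0689). Tmem219, a cell surface receptor of Igfbp3, was at 20.3 ± 5.29 and 23.4 ± 4.30 CPM (edgeR FDR 0.738). Pappa itself had at most 8 counts.

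Of 24 tested genes of receptor signalling, 17 had a log2 fold change below 0, and the median was -0.12, against -0.0041 for all tested genes. None was past FDR 0.05. At an unadjusted p below 0.05 by edgeR, 3 were lower and 1 was higher, where 13.0% of all tested genes passed in either direction. Pik3r1, the regulatory subunit of phosphatidylinositol 3-kinase, was at 247 ± 17.2 CPM in Bbs8+/+ and 210 ± 14.2 CPM in Bbs8-/-, without overlap (log2 fold change -0.23, edgeR FDR 0.0909). The kinase Akt1 was at 114 ± 18.4 and 94.7 ± 8.17 CPM (log2 fold change -0.27, edgeR FDR 0.184). The list of Igf2 RNA regulators and imprinted neighbours had 6 tested genes, with a median of 0.31. Besides H19 it held Igf2bp1, an RNA-binding protein that takes Igf2 mRNA as a target, at 41.3 ± 7.59 and 55.2 ± 9.01 CPM (log2 fold change 0.41, edgeR FDR 0.151).

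**Figure D4:**
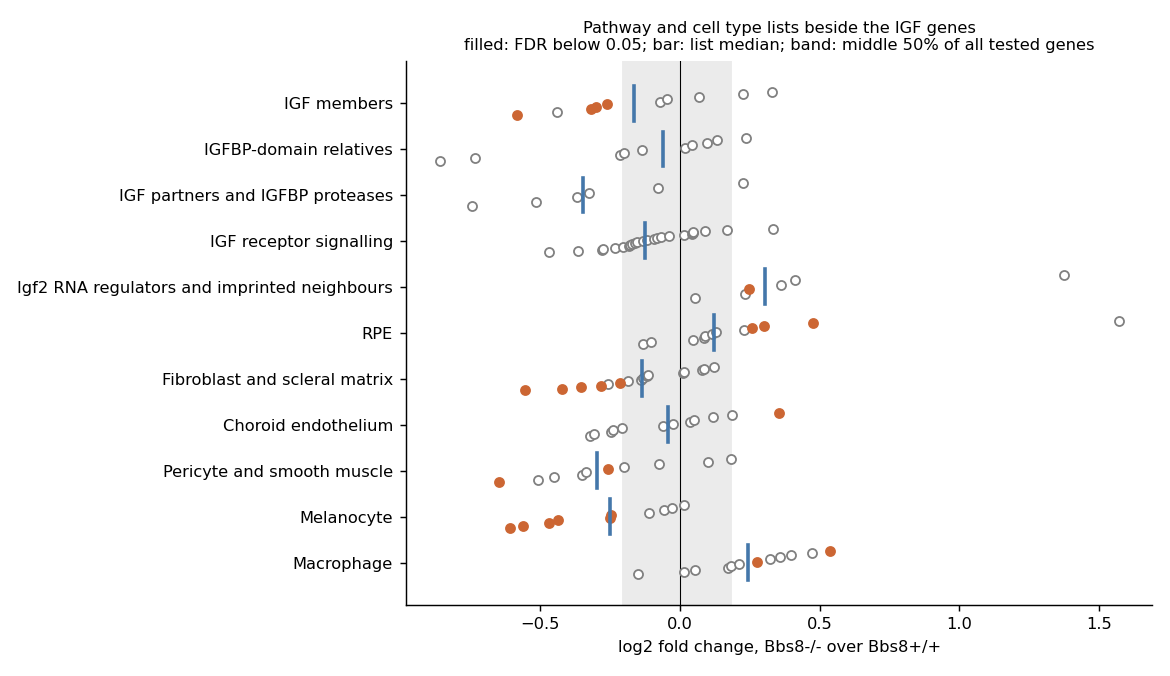
Log2 fold change in Bbs8-/- over Bbs8+/+ of every tested gene in the IGF system, in the 4 related lists and in 6 marker lists (rows; points are genes, filled where FDR is below 0.05; blue bars are list medians; the grey band holds the middle 50% of all tested genes). The IGF system has a median of -0.16 and 4 filled points, and the related lists have medians between -0.34 and 0.31 with H19 as the 1 filled point.

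The eyecup holds several cell types that could carry these transcripts, and the levels of their markers also differed between the genotypes. For comparison, 1.14% of all tested genes fell and 1.10% rose at FDR 0.05. Of the genes with a mean of at least 200 CPM, 8.28% fell. In the list for fibroblasts and scleral matrix, 5 of 16 genes fell (Col1a1, Col1a2, Col3a1, Col5a1 and Col6a3) and 0 rose, and the summed level was 36431 to 38311 CPM in Bbs8+/+ and 29000 to 30134 CPM in Bbs8-/-. All 5 encode collagen chains, and most of the sum and of its difference came from Col1a1 (11698 ± 133 and 8737 ± 327 CPM) and Col1a2 (15096 ± 683 and 10294 ± 269 CPM). Of all 16 genes 11 had a log2 fold change below 0, with a median of -0.14. Among the 11 that did not pass, values ran from -0.25 for Pdgfra (edgeR FDR 0.384) to 0.12 for Lum (edgeR FDR 0.631), and the abundant proteoglycan Dcn was at 5884 ± 151 CPM in Bbs8+/+ and 6250 ± 122 CPM in Bbs8-/- (edgeR FDR 0.174). For pericytes and smooth muscle, 2 of 10 fell (Rgs5 and Notch3) and the sum was 1345 to 1399 against 1182 to 1266 CPM. Most of that difference came from Rgs5, at 714 ± 27.2 CPM in Bbs8+/+ and 598 ± 19.9 CPM in Bbs8-/-. Of these 10 genes 8 had a log2 fold change below 0, with a median of -0.30. The smooth muscle genes Acta2 and Tagln lay above 0, at 0.10 (edgeR FDR 0.592) and 0.19 (edgeR FDR 0.627). In the melanocyte list 6 of 10 genes fell (Tyrp1, Dct, Slc45a2, Mlana, Pmel and Ednrb), with sums of 14726 to 15406 against 12235 to 12795 CPM. The first 5 of these are pigment cell genes that the RPE can also express, and Dct alone was at 10361 ± 126 CPM in Bbs8+/+ and 8721 ± 173 CPM in Bbs8-/-. Ednrb, an endothelin receptor of the neural crest lineage, was at 244 ± 3.87 and 180 ± 5.79 CPM (edgeR FDR 1.97e-05). The 4 genes that did not pass were Sox10 and Kit, also of that lineage, Gpnmb and the pigment enzyme Tyr, with log2 fold changes between -0.11 and 0.02. For Schwann cells 3 of 7 fell, with sums of 240 to 257 against 141 to 163 CPM. The summed RPE markers were higher in the knockout, at 18437 to 19515 against 20081 to 20450 CPM, and 3 of 12 rose (Otx2, Krt18 and Ezr). Much of the sum was Ttr, at 10937 ± 513 and 11657 ± 61.6 CPM (edgeR FDR 0.0686). Of the 12 genes 2 had a log2 fold change below 0, the visual cycle genes Rpe65 at -0.13 (edgeR FDR 0.0843) and Lrat at -0.10 (edgeR FDR 0.547), and the list median was 0.12. Other retinoid genes lay above 0, with Rlbp1 at 0.12 (edgeR FDR 0.299) and Stra6 at 0.23 (edgeR FDR 0.0635). The endothelial sum overlapped, at 1131 to 1204 against 1118 to 1215 CPM, and 1 of 12 endothelial genes rose (Egfl7). Of the 12, 7 had a log2 fold change below 0, with a median of -0.04, and at an unadjusted p below 0.05 there were 3 lower (Flt1, Tie1 and Cdh5) and 1 higher.

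Macrophage markers summed to 501 to 551 CPM in Bbs8+/+ and 606 to 647 CPM in Bbs8-/-, and 2 of 12 rose. For this and the following lists, the shares over all tested genes were 1.10% risen and 1.14% fallen. Skeletal muscle markers summed to 3126 to 3354 against 3508 to 3777 CPM, and 2 of 12 rose. Photoreceptor markers summed to 649 to 707 against 529 to 636 CPM, and 2 of 10 fell. Lens markers summed to 68.8 to 85.0 CPM in Bbs8+/+ and 506 to 552 CPM in Bbs8-/-, and 13 of 18 rose. Of the surface epithelium list 3 genes were tested and all 3 fell, with sums of 15.7 to 21.9 against 0.47 to 1.38 CPM and Krt14 at 0. DESeq2 gave the same counts as edgeR for the marker lists except for pericytes and smooth muscle (1 fell), macrophages (1 rose), RPE (4 rose), skeletal muscle (3 rose) and lens (12 rose). The part of any of these cell types in the IGF system values was not tested.

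The profiles most like those of the 4 falling genes were sought among 3339 genes with a mean of at least 50 CPM, by the root mean square difference of centred log2 CPM over the 8 libraries. This is a description, since both profiles come from the same libraries. Centring was over all 8 libraries, so the genotype difference was part of each profile and genes with a similar fold change lay near. Whether near genes share a cell type or function was not tested. Igfbp4 was nearest to Col1a2, a chain of type I collagen, with a difference of 0.0816, followed by Dennd5a and Adamts1. The log2 fold changes of these 3 genes were -0.55, -0.58 and -0.57, beside -0.58 for Igfbp4. Col1a2 itself went from 15096 to 10294 CPM. Igfbp5 was nearest to Serpinh1, the chaperone of collagen folding, with a difference of 0.0318, followed by mt-Nd5 and B2m. Igf1 was nearest to Tmem176b (0.0269), followed by Sfpq and Cbx6, and Igfbp7 to Hnrnpul2 (0.0759), followed by H2-D1 and mt-Co1.

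Across 16 other fits, Igfbp4 ranged from -0.62 to -0.54 on the log2 scale, Igfbp5 from -0.33 to -0.28 and Igfbp7 from -0.38 to -0.27, and these 3 genes were past FDR 0.05 in each. When a change of 0.5 or more on the log2 scale was required as well, Igfbp4 was the 1 gene of the 10 that met it.

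**Figure D5:**
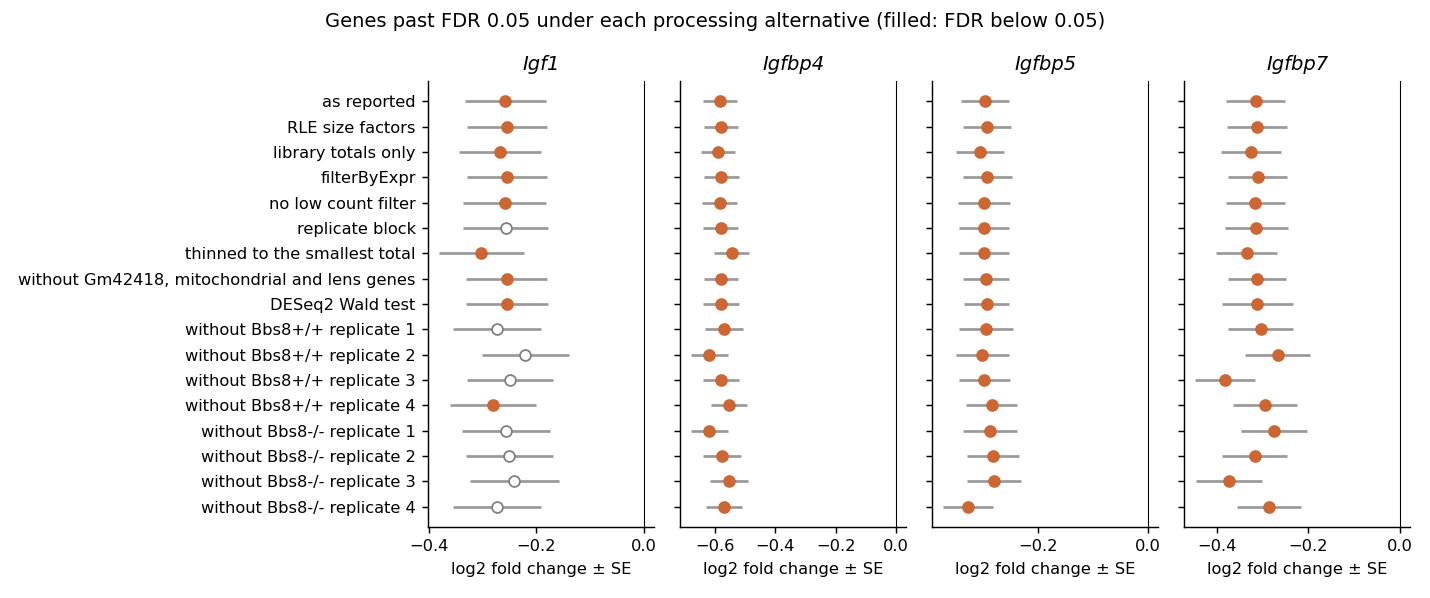
Log2 fold change ± SE (horizontal axes, one panel per gene) of Igf1, Igfbp4, Igfbp5 and Igfbp7 as reported and in each of the 16 other fits (rows); filled points have FDR below 0.05. Igfbp4, Igfbp5 and Igfbp7 are filled in every row, while Igf1 is open in 8 of the 16.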

How the data were processed

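RNA from RPE eyecups was sequenced as 8 QuantSeq 3′ libraries. The authors trimmed reads with BBDuk, aligned them with STAR to mm10 and counted uniquely aligned reads per gene with htseq-count. The deposited values are these raw counts, with 5 summary lines per file that were left out here; reads outside genes were 42.1% to 44.4% of uniquely aligned reads and ambiguous reads about 0.31% to 0.32%. Positions (1-based) are from GENCODE M21, which held 31011 of the 31053 identifiers. Genes reaching 1 CPM in 4 or more libraries entered edgeR 4.0.16 (R 4.3.3; quasi-likelihood F test, TMM normalization, genotype as the only factor, two-sided, Benjamini-Hochberg over 13813 genes, FDR 0.05). CPM values of genes are TMM-normalized, whereas the detection floor and the ambiguous reads are scaled to total gene counts. Standard errors are the log2 fold change divided by the square root of F, and 95% intervals are not adjusted. Limits from 3 counts cover counting error only. The procedure was also run on simulated counts, drawn independently for each library with the dispersion estimated from these data. Such counts cannot show how it performs where libraries share pooled tissue.

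The 10 genes, the lists and the tests were chosen with earlier results of these data known. Named genes were the 10, Ttc8, list genes past FDR 0.05, the 2 most abundant tested genes of each related list, and the 3 nearest profiles of each falling gene. List genes named as untested, and marker genes named that were not past FDR 0.05, were chosen after their values were seen. Alternatives were RLE size factors, library totals, filterByExpr, no filter, DESeq2 1.42.0, a replicate block, thinning to the smallest total, leaving out Gm42418, mitochondrial and lens genes, FDR 0.01, a minimum change of 0.5 on the log2 scale, and leaving out each library.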

Additional observations from a re-analysis of the deposited data

Results flagged for a closer look

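In 38 groups of 4 libraries, 3 had a library far from the others by Dixon's criterion, where chance alone gives about 1.9. Igfbp2 was at 80.3 CPM in Bbs8+/+ replicate 3 and at 93.5 to 95.5 CPM in the other controls. Igfbp4 made up 21.9% of the binding protein sum in Bbs8+/+ replicate 2 and 24.0% to 24.4% in the other controls. Igfbp5 made up 57.0% of it in Bbs8+/+ replicate 3 and 55.4% to 55.6% in the other controls.

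Among reads that entered no comparison, the share of uniquely aligned reads outside annotated genes was at least 44.1% in Bbs8-/- libraries and 42.1% to 43.4% in Bbs8+/+ libraries, without overlap (two-sided exact permutation p = 0.0286, the smallest that 4 against 4 allow).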

How the results depend on the processing

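The median of all tested genes stayed between -0.013 and 0.0066 on the log2 scale in every fit, and no scaling changed the direction of any of the 10 genes. Igf2 was the exception among the library omissions, with -0.072 without Bbs8+/+ replicate 4 and -0.064 without Bbs8-/- replicate 1 (highest 0.23). Igf1 lost its call in 8 of 16 fits. Leaving out 1 library gave 3 to 4 falling and 0 rising genes of the 10, 0 to 2 falling and 1 rising genes in the related lists (Sos1 without Bbs8+/+ replicate 1, Akt1 and Stc1 without Bbs8+/+ replicate 3), a binding protein sum of 79.0% to 80.5% of the control, and 101 to 150 falling and 114 to 172 rising genes of all tested, against 157 and 152 with all libraries; the 101 was without Bbs8-/- replicate 1. DESeq2 gave 104 falling genes. FDR 0.01 left 81 falling and 93 rising genes. A minimum change of 0.5 on the log2 scale left 69 and 62, with 1 falling gene of the 10 and 0 rising list genes. Thinning gave 1 falling (Pik3r1) and 2 rising (H19 and Igf2bp1) list genes. The causes were not tested.

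Libraries of the same replicate number did not deviate together (correlations -0.056 to 0.0196 over 6626 genes), so the numbers do not pair them. With the number as a replicate block, 3 of the 10 genes fell and Igf1 was at -0.26 (edgeR FDR 0.0700), while 129 genes fell and 134 rose in all.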
